A study of Mus musculus with 55 samples.

Results

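The comparison set bulk RNA-seq libraries of common lymphoid progenitors (CLPs) against those of short-term haematopoietic stem cells (ST-HSCs), both sorted from the bone marrow of wild-type (WT) mice. The members were taken from the sample labels: 4 libraries labelled WT CLP (replicates 2 to 5) and 3 labelled WT ST-HSC (replicates 2, 3 and 5), 7 of the 46 libraries of the first count table and 7 of 55 in the series. The study asked which signals act in stem and progenitor cells that lack Tet2, and its samples cover 6 populations. All mice were on a C57BL/6 background. ST-HSCs were sorted as lineage-negative, cKit+ Sca1+ CD48- CD150- cells and CLPs as lineage-negative, cKit+ cells of intermediate Sca1 that carry CD127, the protein of Il7r. For stem cells the lineage cocktail is given as B220, CD4, CD5, CD8, Gr1 and Ter119; for CLPs the sources used here say only that the cells were lineage-negative. For the second genotype, 4 CLP and 4 ST-HSC libraries labelled Tet2KO were used, from mice with floxed Tet2 and Mx1-Cre, a transgene that interferon switches on in many cell types. Cre was induced at 4 weeks of age with 5 doses of poly(I:C). The 16 weeks between induction and analysis are given for the sequenced mice without setting WT apart, and the sources used here do not say in so many words that WT mice received poly(I:C). A further 4 libraries labelled WT CMP (common myeloid progenitors) served for a second comparison. The labels give 200 sorted cells per library and do not say whether equal replicate numbers share a mouse, so p-values measure only the spread between these libraries.

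ST-HSCs sustain blood formation for a limited time and hold the transcription factors of the stem cell state, among them Mecom, Hlf, Meis1 and the Hoxa cluster. CLPs have lost most of that state and depend on the interleukin-7 (IL-7) receptor, which signals through JAK and STAT5 kinases and factors to keep lymphoid cells alive. They give rise to B, T, NK and innate lymphoid cells and are known for Flt3, the RAG recombinase, terminal transferase (Dntt) and, on the B-cell side, Ly6d and then Ebf1.

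The 7 libraries held 51966192 to 78705617 counts. The libraries labelled CLP stood apart from the others in several ways. They had counts on 13791 to 15298 genes against 17753 to 18126 in ST-HSC, 2.41% to 4.58% of counts on mitochondrial genes against 8.73% to 9.02%, and correlated among themselves at 0.867 to 0.895 against 0.969 to 0.971 within ST-HSC (Pearson's r of log2 CPM across genes). Genes of immunoglobulins took 26.3% to 46.4% of their counts, as described below. The part of these differences in the results was not tested. Levels are given as CPM, counts divided by the TMM-scaled library size, and fold changes are CLP over ST-HSC on the log2 scale. The TMM factors were 0.653 to 0.928 in CLP and 1.37 to 1.43 in ST-HSC, so a ratio of CPM in CLP over ST-HSC is larger than the same ratio of unscaled shares of counts.

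Of 15099 genes tested, 997 (6.6%) were called higher and 1250 (8.28%) lower in CLP, where a call needs an adjusted p under 0.05 together with a change of 2-fold or more. The median log2 fold change was -0.07 over all tested genes, 2.88 over those called higher. Over those called lower it was -3.55 with genes at the detection limit taken at their bound, and -4.56 by the fitted values. The lower calls were in large part losses to the detection limit, since 659 of the 1250 had at most 3 counts in every CLP library, while 138 of the 997 higher calls had at most 3 counts in every ST-HSC library. Fold changes of such genes are given below as lower bounds against 3 counts per library. The counts of calls rest on the 3 ST-HSC libraries: without replicate 2 they were 307 higher and 123 lower, without replicate 3 322 and 137, and without replicate 5 295 and 114. A core of 231 higher and 99 lower genes was called in each of the 7 fits that left out 1 library. These are called the stable genes below, and calls not described as stable may be lost in some of these fits. Each such fit also has fewer libraries, so a lost call alone does not show that it rests on 1 library. Over all tested genes the libraries of the groups did not overlap in 13.1% of genes with CLP higher and in 21.5% with CLP lower.

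**Figure D1:**
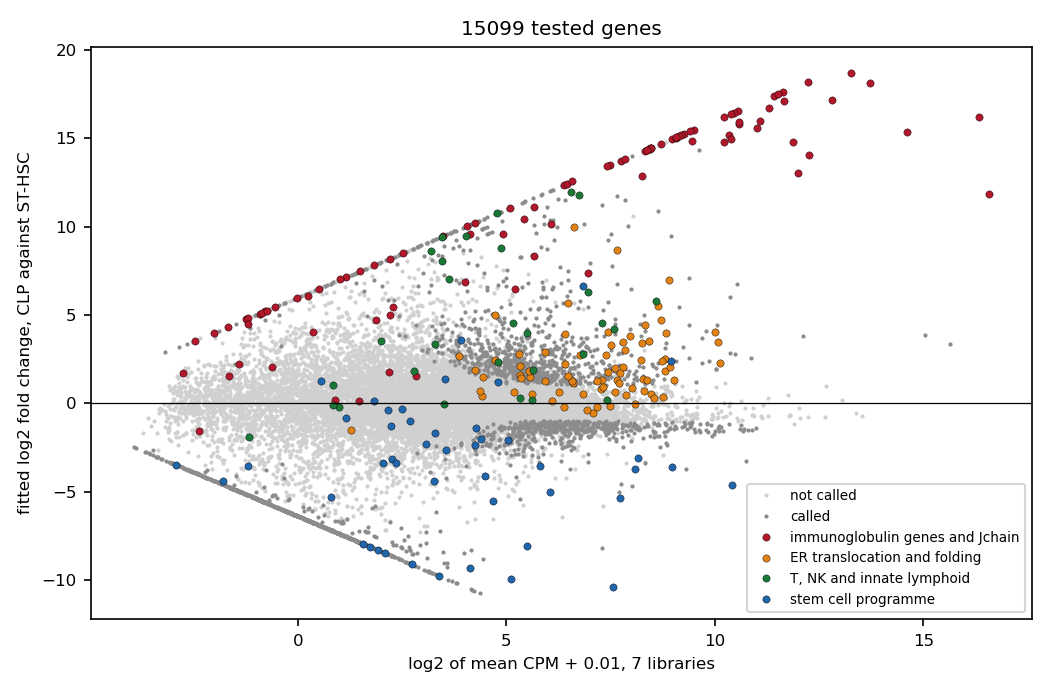
Fitted log2 fold change of CLP over ST-HSC (vertical axis) against the log2 mean CPM of the 7 libraries (horizontal axis) for the 15099 tested genes, each a point, with 4 gene groups in colour. Immunoglobulin genes and Jchain form the upper right edge, most genes of ER translocation and folding lie above 0, and most genes of the stem cell programme lie below it; points along the straight edges have counts near 0 in 1 group.

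The receptor that defines the gate was present. Il7r (ENSMUSG00000003882) stood at 286, 466, 514 and 426 CPM in the 4 CLP libraries and at 0, 0.779 and 0.335 CPM in ST-HSC. Kit, whose protein was gated positive in both populations, was at 61.5 to 78.0 CPM in CLP against 146 to 197 CPM. Ly6a, which encodes Sca1, went against its gate: it was at 75.5, 257.5, 264 and 149 CPM in CLP, sorted as intermediate, and at 29.0, 39.1 and 48.6 CPM in ST-HSC, sorted as positive. Since cells were sorted on these products, their values check the labels and are no result.

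Early lymphoid genes were called higher for 6 of 19 tested and lower for 1, beside 6.6% and 8.28% of all tested genes. Their median log2 fold change was 1.46. Ly6d, a surface protein of B-cell-biased lymphoid progenitors, was at 516, 793, 964 and 531 CPM in CLP against 0, 0.900 and 0.112 CPM in ST-HSC. The groups did not overlap, and the log2 fold change was 10.89 (SE 1.70, adjusted p = 0.0106, with 0.0164 to 0.0607 when 1 library was left out and the call lost without ST-HSC replicate 5). Ikzf3, which encodes the lymphoid zinc-finger factor Aiolos, was a stable gene, with 54.9, 184, 236 and 116 CPM against at most 0.0373 CPM. Ccr9, Irf4, Irf8 and Lax1 were the others called higher. Sox4, a factor required in lymphoid progenitors, was lower instead, at 21.5 to 38.9 CPM against 155 to 204 CPM (log2 fold change -2.64, SE 0.26, adjusted p = 0.00351), and was stable.

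Several genes by which CLPs are usually known were uneven or near 0. Flt3, the cytokine receptor of multipotent and lymphoid progenitors, had 16.5, 79.1, 0 and 73.5 CPM in CLP and 77.8, 80.9 and 70.5 CPM in ST-HSC. Dntt, terminal transferase, had 314, 313, 0.696 and 535 CPM against 16.2, 57.7 and 91.9 CPM, and was not called (log2 fold change 2.40, SE 1.52, adjusted p = 0.398). In both genes replicate 4 was the low library. Rag2, a RAG recombinase subunit, was at 24.6 and 24.0 CPM in replicates 2 and 5, at 0.102 in replicate 3 and at 0 in replicate 4. Rag1, its partner, had a count of 0 in all 4 CLP libraries, which allows at most 3 counts in each. Pax5, the B-lineage commitment factor that acts later, had a count of 0 in the same 4 libraries, and Ebf1, which comes before it, was at 0 to 2.45 CPM. The libraries thus met their label in Ly6d and in Il7r, whose protein was gated, while Flt3 and Dntt were uneven. Against the label stood Rag1 and the immunoglobulin and plasma cell genes described below, Jchain, Xbp1, Sdc1, Prdm1 and Mzb1 among them. The libraries are called by the label only.

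The IL-7 receptor pathway was called higher for 8 of 16 genes and lower for none, beside 6.6% and 8.28% of all tested genes. Its median log2 fold change was 2.12. The count of higher calls includes Il7r, whose protein was gated and which is no result here. The others were the shared chain Il2rg, the kinase Jak3, the related receptor chain Crlf2, the survival genes Bcl2 and Pim2, and the feedback inhibitors Cish and Socs3. Bcl2, which protects lymphoid cells from death downstream of the receptor, was at 155, 224.5, 136 and 101.9 CPM in CLP and at 30.4, 28.9 and 14.6 CPM in ST-HSC. It rose by 2.64 (SE 0.40, adjusted p = 0.00949) and was the only stable gene of the 8 in the fits that left out 1 library. Stat5a and Stat5b, the factors of the pathway, were not called, with log2 fold changes of -0.46 (SE 0.64) and 0.20 (SE 0.66).

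**Figure D2:**
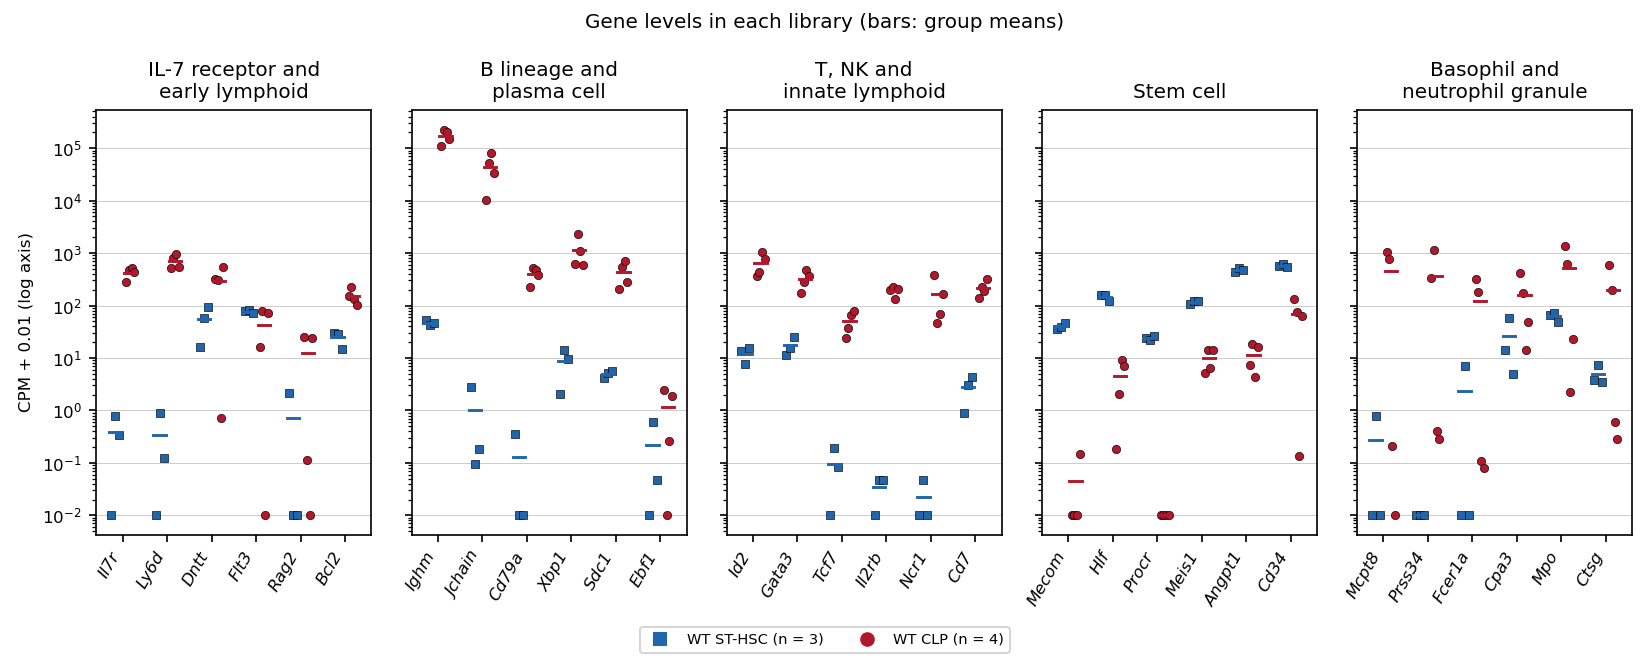
CPM on a log axis in each library for 6 genes of each of 5 kinds: squares are the 3 WT ST-HSC libraries, circles the 4 WT CLP libraries and bars the group means, with a small constant added so that values of 0 can be drawn. Il7r, Ly6d, Ighm, Jchain, Id2, Gata3, Il2rb and Cd7 do not overlap between groups, whereas Dntt, Flt3, Mcpt8, Fcer1a and Mpo spread over 2 or more powers of 10 within CLP.

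Immunoglobulin RNA was the most abundant product that separated the libraries. Genes of immunoglobulins and Jchain took 26.3%, 43.2%, 46.4% and 39.7% of all counts in CLP replicates 2 to 5, and 0.00929%, 0.00887% and 0.00936% in ST-HSC replicates 2, 3 and 5. The 95% exact binomial interval of the lowest CLP share was 26.339% to 26.359%, and it covers counting error only. In the 38 libraries of the table that are not labelled CLP, of either genotype, the share was at most 0.0234%. Of 99 such genes tested in WT, 37 were called higher and 0 lower, beside 6.6% and 8.28% of all tested genes. Of the 99, 57 were at the floor of 3 counts in every ST-HSC library. Without immunoglobulin genes and Jchain in the library sizes and tests, 972 genes were called higher and 1204 lower.

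Ighm (ENSMUSG00000076617), the constant region of the IgM heavy chain, took 10.3%, 15.9%, 13.0% and 12.7% of counts in CLP. It rose by 11.84 (SE 0.45, adjusted p = 0.000195), from 42.0 to 52.8 CPM in ST-HSC. Igkc (ENSMUSG00000076609, chr6:70726435-70726966, plus strand, mm10), the kappa light chain constant region, was at 64860, 146300, 207100 and 163500 CPM against 0.0269, 3.88 and 1.77 CPM. Jchain (ENSMUSG00000067149, chr5:88519809-88527891, minus strand), which joins IgM into pentamers in secreting cells, was at 10230, 53070, 79560 and 32910 CPM against 2.79, 0.0835 and 0.177 CPM. All 3 genes were stable. Constant regions of IgG took 2.44% of counts in replicate 3 and at most 0.00295% in the other 3 CLP libraries.

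Variable genes differed from library to library. Igkv1-135 gave 58.8% of kappa variable counts in replicate 2 and 33.1% in replicate 4, Igkv8-24 led replicate 3 with 19.4%, and Igkv14-126 led replicate 5 with 48.6%. Among heavy chain variable genes, Ighv1-5 gave 68.6% in replicate 2 and 49.1% in replicate 4, Ighv9-3 18.0% in replicate 3 and Ighv11-2 52.8% in replicate 5. Between 6 and 15 genes per library and chain passed 1% of the variable counts. Variable genes have near-identical copies, and the assignment of reads among them is uncertain.

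The mature B and plasma cell list had 9 of 12 tested called higher and 0 lower, beside 6.6% and 8.28% of all genes tested. Its median log2 fold change was 6.53, and 6 of the 9 were stable. Its summed level was 91800 to 301800 CPM in CLP and 135.5 to 178 CPM in ST-HSC. Xbp1, the transcription factor that builds the secretory apparatus of plasma cells, was at 608, 2302, 1110 and 580.1 CPM against 2.08, 14.1 and 9.60 CPM (log2 fold change 7.06, SE 0.98, adjusted p = 0.00759). Sdc1, which encodes the plasma cell surface protein syndecan-1 (CD138), was at 209, 554, 709 and 285 CPM against 4.20, 5.07 and 5.62 CPM. Mzb1, a chaperone of immunoglobulin assembly, was at 853 to 2093 CPM against at most 0.111 CPM, and Prdm1, which encodes the plasma cell factor Blimp-1, at 53.1 to 192 CPM against at most 2.20 CPM. In each of these genes the groups did not overlap. Ighd and Fcer2a, markers of naive mature B cells, were at 0 to 11.4 CPM and 0 to 0.915 CPM in CLP and were not called. Ms4a1, another B-cell gene, had more counts in each CLP library than in any ST-HSC library and was not called. It had 1829, 6942, 5758 and 393 counts in CLP replicates 2 to 5 and 0, 154 and 0 in ST-HSC replicates 2, 3 and 5.

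The B lineage list was called higher for 8 of 25 tested genes and lower for 2, with a median log2 fold change of 3.76. Over all tested genes 6.6% were called higher and 8.28% lower, so the lower calls are near that share. Cd79a, a signalling chain of the B-cell receptor, was at 225, 526, 467 and 376 CPM against at most 0.350 CPM (log2 fold change 11.50, SE 1.84, adjusted p = 0.0116) and was stable, as were Fcrla, Ighm and Igkc. With the replicate numbers as a block the call of Cd79a was lost (edgeR adjusted p = 0.0532). Pou2af1, a coactivator of immunoglobulin genes, was at 78.9 to 334.5 CPM against at most 0.436 CPM. Vpreb1, a part of the surrogate light chain of pre-B cells, was at 0 in all 4 CLP libraries and at 0.345 to 1.39 CPM in ST-HSC, and was called lower, as was Cplx2. The calls of Vpreb1 and Cplx2 were lost without any 1 ST-HSC library.

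**Figure D3:**
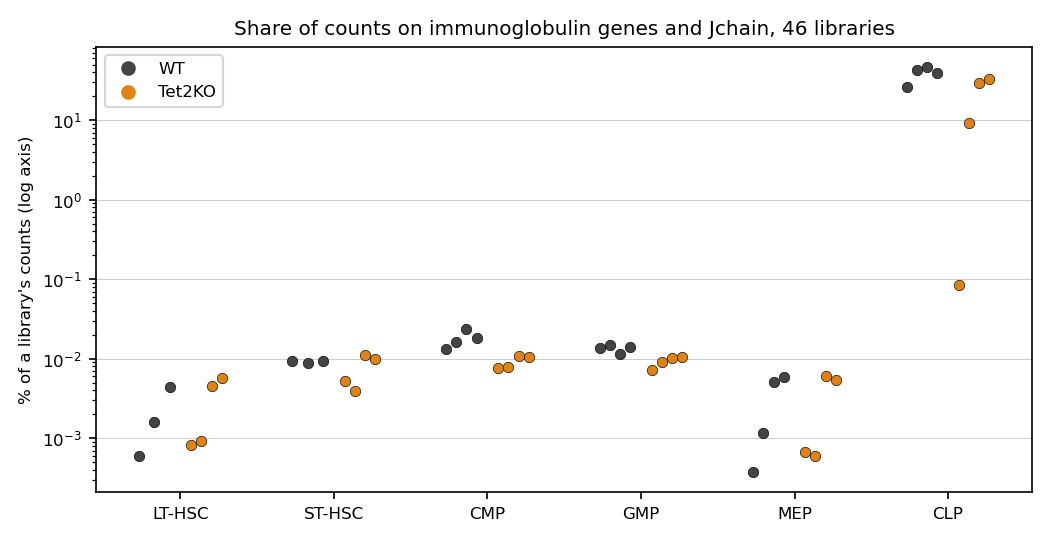
Share of each library's counts on immunoglobulin genes and Jchain (vertical log axis, %) in the 46 libraries of the first table, by population (horizontal axis) and genotype (colour), each point 1 library. The 4 WT CLP libraries lie at 26.3% to 46.4%, 3 of the 4 Tet2KO CLP libraries at 9.25% to 32.6% and the fourth at 0.0839%, and all others at or below 0.0234%.

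Genes of endoplasmic reticulum (ER) translocation and folding were the largest group of higher calls among the lists. A list of 78 genes that carry proteins into the ER, fold them, add glycans and remove misfolded chains was drawn up after values of some of its genes were seen, so its counts are a description. Of 77 tested, 44 were called higher and 0 lower, beside 6.6% and 8.28% of all tested genes, and 22 of the 44 were stable. The median log2 fold change was 1.71, and the summed level of the list was 18380 to 35080 CPM in CLP and 6716 to 6736 CPM in ST-HSC. As an unscaled share of counts the list took 1.59% to 2.28% in CLP and 0.92% to 0.96% in ST-HSC. The median was 1.72 with immunoglobulin genes left out of the scaling and the tests, and the part of the plasma cell genes in this list's change was not tested.

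Members of each step were among the calls. For entry into the ER, Sec61a1, the channel subunit, was at 275, 491, 529 and 374 CPM against 31.7, 29.2 and 27.0 CPM, a rise of 3.83 (SE 0.31, adjusted p = 0.00186). For glycan transfer, Ddost was at 599, 621, 523 and 424 CPM against 34.8, 19.6 and 21.7 CPM, a rise of 4.42 (SE 0.32, adjusted p = 0.00169). Among folding factors, the disulfide isomerase Pdia4 rose by 5.51 (SE 0.51) and the co-chaperone Sdf2l1 by 8.69 (SE 0.56, 243 to 568 CPM against 0.556 to 1.105 CPM). Hspa5, which encodes the main ER chaperone BiP, was at 1278, 2070.0, 2410.0 and 1004 CPM against 242, 334.5 and 462 CPM. It rose by 2.29 (SE 0.41, adjusted p = 0.0155), a call lost without any 1 ST-HSC library (adjusted p = 0.0550 to 0.0777). For the removal of misfolded chains, Herpud1, Edem2, Syvn1 and Derl1 were called higher and stable, with rises of 4.06, 3.40, 3.91 and 3.30. Canx, the lectin chaperone calnexin, did not follow, with a log2 fold change of -0.05 (SE 0.22). Of the stress sensors and their targets, the sensor Atf6 rose by 2.10 (SE 0.46), a call lost without any 1 ST-HSC library (adjusted p up to 0.084 over the alternatives run), and the related Atf6b rose by 4.98 (SE 0.70) and was stable, whereas Ern1, Atf4 and Ddit3 had 0.71 (SE 0.87), 0.32 (SE 0.24) and -0.53 (SE 0.23) and were not called.

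Promoters of many ER chaperone genes carry the ER stress response element, which factors of the Xbp1 and Atf6 kind bind together with NF-Y. Its letters, CCAAT, then 9 bases of any kind, then CCACG, on either strand, were searched in the 250 bases before the start of each gene (RefSeq, GRCm38.p6). They occurred in 35 of 27025 genes of the table with a promoter in the reference (0.13%), in 16 of 9900 tested genes (0.162%), in 9 of 685 called higher (1.31%) and in 0 of 837 called lower. In the ER list 9 of 61 tested genes held it (14.8%), and 8 of the 35 called higher (22.9%). These 8 are among the 9 called higher, so the counts overlap, and the list was drawn up after values were seen. Another element of the same stress factors, the UPRE (TGACGTGG, both strands), occurred in 0.603% of all these promoters, in 0.889% of tested genes, in 1.46% of those called higher, in 0.956% of those called lower and in 0 of the 61 ER genes. The octamer ATGCAAAT of immunoglobulin promoters occurred in 1.81% of all, 1.51% of tested, 2.63% of higher and 1.08% of lower genes and in 0 of the 61. A match describes the letters only. The windows of those 8 genes are shown because they are the promoters among the called ER genes that share these letters; each is printed 5′ to 3′ on the strand of its gene with the match in capitals, reversed and complemented where it lies on the other strand, and Hsp90b1 holds a second match that is not shown.
Hspa5, chr2:34771985-34772083 (+): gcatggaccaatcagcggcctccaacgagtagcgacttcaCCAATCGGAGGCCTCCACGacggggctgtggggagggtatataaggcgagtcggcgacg
Hsp90b1, chr10:86705598-86705694 (-): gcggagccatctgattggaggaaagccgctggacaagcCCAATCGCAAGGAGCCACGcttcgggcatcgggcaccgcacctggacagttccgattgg
Calr, chr8:84847035-84847133 (-): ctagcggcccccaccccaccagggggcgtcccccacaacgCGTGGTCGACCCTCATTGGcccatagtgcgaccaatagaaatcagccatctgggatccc
Pdia6, chr12:17266451-17266549 (+): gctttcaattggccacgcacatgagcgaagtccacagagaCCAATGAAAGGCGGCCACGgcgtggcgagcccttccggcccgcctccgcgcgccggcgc
Dnajc3, chr14:118937787-118937885 (+): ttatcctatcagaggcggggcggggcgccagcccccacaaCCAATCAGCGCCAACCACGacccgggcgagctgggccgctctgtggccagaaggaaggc
Syvn1, chr19:6046492-6046575 (+): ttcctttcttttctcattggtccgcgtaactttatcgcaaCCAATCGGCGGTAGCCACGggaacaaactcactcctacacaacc
Derl3, chr10:75893202-75893300 (+): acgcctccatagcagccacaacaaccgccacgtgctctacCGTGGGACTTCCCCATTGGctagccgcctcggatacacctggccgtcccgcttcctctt
Creld2, chr15:88819480-88819578 (+): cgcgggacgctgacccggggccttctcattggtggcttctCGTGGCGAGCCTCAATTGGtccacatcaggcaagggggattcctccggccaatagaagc
The spacer between CCAAT and CCACG is 9 bases in each by construction, and the flanks differ. The genes that carry these windows rose by 1.80 (Calr) to 9.96 (Derl3) on the log2 scale. Derl3, a component of the export channel for misfolded proteins, was at 131, 198, 271 and 88.7 CPM against 0.458, 0 and 0 CPM, and Creld2, a secreted ER folding factor, at 439, 1198, 988 and 693 CPM against 2.37, 7.75 and 9.20 CPM. Canx holds the same letters and was not called.

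Genes of T, NK and innate lymphoid cells were called higher for 16 of 29 tested and lower for none, beside 6.6% and 8.28% of all tested genes. Their median log2 fold change was 3.97, and 7 of the 16 were stable. Id2, the inhibitor of E proteins that innate lymphoid cells need, was at 366, 433, 1068 and 768 CPM against 13.6, 7.65 and 15.2 CPM (log2 fold change 5.76, SE 0.56, adjusted p = 0.00351). Gata3, a factor of T and innate lymphoid cells, was at 176, 275, 472 and 363 CPM against 11.6, 15.3 and 25.5 CPM (4.20, SE 0.48, adjusted p = 0.00417). Il2rb, the IL-2 and IL-15 receptor chain of NK and T cells, was at 133.5 to 222 CPM against at most 0.0373 CPM. Ncr1, the NK receptor NKp46, was at 374, 45.8, 69.0 and 168.5 CPM against at most 0.0371 CPM, and Zap70, the T-cell receptor kinase, at 5.81 to 31.6 CPM against 0 (at least 595-fold higher). Rora and Cd7 were the other stable genes. With the replicate numbers as a block the call of Zap70 was lost (edgeR adjusted p = 0.0964). Tcf7, a Notch target of early T cells, was at 23.8 to 77.0 CPM against at most 0.186 CPM, and Tbx21, which encodes T-bet, at 5.14 to 45.2 CPM against at most 0.0373 CPM.

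The Cd3 chains of the receptor complex of mature T cells were not part of the pattern. Tcrg-C1, a gamma chain constant region outside the lists, was called higher and is given under other observations. Cd3d was at 0.713 CPM in replicate 2 and 0 in the other 3 CLP libraries, Cd3e had a count of 0 in all 7 libraries, and Cd3g had counts in CLP replicate 5 only among CLP. The Notch pathway, which drives T-cell fate, had 1 of 12 genes called higher and 0 lower, which is near the 6.6% of all tested genes called higher. The call was the ligand Dll1, and it was lost in the fits without CLP replicate 2 or 5 and without any 1 ST-HSC library. Notch1 was at 47.9, 36.8, 2.54 and 61.5 CPM against 11.3 to 16.02 CPM and was not called (log2 fold change 1.46, SE 0.89). Among E proteins and Id factors, Tcf4, Lyl1 and Id2 were called higher of 10 tested, while Tcf3, which encodes E2A, had 1.11 (SE 0.73).

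Homing and adhesion genes were called higher for 10 of 20 and lower for none, beside 6.6% and 8.28% of all tested genes. Their median log2 fold change was 1.92. Cxcr3, a chemokine receptor of activated lymphoid cells, was at 81.2, 56.6, 61.2 and 90.1 CPM in CLP and 0 in ST-HSC (at least 2254-fold higher). Gpr183, the oxysterol receptor that guides lymphoid cells, was at 188 to 253.5 CPM against 0.158 to 1.48 CPM, and the integrin chain Itgb2 at 51.7 to 154.5 CPM against 1.86 to 6.52 CPM. Both were stable, as were Cxcr3 and Cxcr5. With the replicate numbers as a block the call of Itgb2 was lost (edgeR adjusted p = 0.0614). Cxcr4, the receptor that holds progenitors in the marrow, rose by 1.71 (SE 0.30, adjusted p = 0.0150).

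Of the dendritic cell list 11 of 15 were called higher and 0 lower, beside 6.6% and 8.28% of all tested genes. Among the 11 were class II antigen presentation genes that B cells also express. Cd74, the class II invariant chain, was at 1687, 2766, 2779 and 1829 CPM against 26.6, 41.6 and 35.7 CPM (log2 fold change 6.03, SE 0.37, adjusted p = 0.00135) and was stable. H2-Aa, H2-Ab1 and H2-Eb1, class II chains, rose by 1.92, 1.80 and 3.01. Siglech, a defining gene of plasmacytoid dendritic cells, was at 32.5, 0, 0 and 18.8 CPM and was not called.

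Many genes of the stem cell programme fell. Of 46 tested genes 19 were called lower and 2 higher, beside 8.28% and 6.6% of all tested genes, with a median log2 fold change of -3.43 (-3.38 with genes at the detection limit at their bound), and its summed level was 998 to 1958 CPM in CLP against 6943 to 7857 CPM in ST-HSC. Angpt1 (ENSMUSG00000022309, chr15:42424723-42676977, minus strand), a ligand of the stem cell receptor Tie2, was at 7.39, 18.6, 4.38 and 16.2 CPM against 436, 512 and 478 CPM (-5.35, SE 0.55, adjusted p = 0.00357). Meis1, a homeobox partner of Hox factors, was at 5.11 to 14.2 CPM against 105 to 124 CPM, and Ctla2a at 45.9 to 183.5 CPM against 2669 to 3527 CPM. These 3 genes were stable and their groups did not overlap.

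Procr, which encodes the stem cell marker EPCR, was at 0 in all 4 CLP libraries and at 24.1, 21.9 and 26.7 CPM in ST-HSC (at least 419-fold lower). Mecom, the stem cell factor EVI1, was at 0, 0, 0 and 0.138 CPM against 36.3, 39.3 and 45.9 CPM, and Hlf at 0.175, 2.01, 9.22 and 6.88 CPM against 159.5, 158 and 123.5 CPM. Myct1, an endothelial and stem cell gene, was at 0, 0.0813, 0 and 1.05 CPM against 451, 485 and 369 CPM. The levels of these 4 did not overlap, but their calls were lost without any 1 ST-HSC library (adjusted p = 0.0511 to 0.0818), and that of Hlf also without CLP replicate 3 (adjusted p = 0.0512). Cd34 was lower in every CLP library, at 135, 74.3, 0.124 and 63.0 CPM against 531 to 629 CPM, and was not called (log2 fold change -3.08, SE 1.38, adjusted p = 0.205). The 2 genes of the list called higher were Ltb, a lymphotoxin chain that lymphoid cells express, at 125 to 292 CPM against 1.19 to 3.01 CPM, and Egr1, an immediate early factor.

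By size of change among genes at 50 CPM or more in the higher group, the 10 largest falls with no overlap included Myct1, Tbxas1, Gm19590, Mc5r, Angpt1, Lyz2, Hlf and Adgrl4, and the 10 largest rises were Igkc, Jchain and 8 immunoglobulin variable genes. Of these rises, Igkc, Jchain and the variable gene Iglv1 were stable. The calls of the other variable genes among them were lost without any 1 ST-HSC library. Tbxas1, thromboxane synthase, was at 0 to 0.233 CPM in CLP against 40.7 to 67.8 CPM, and Adgrl4, an adhesion receptor of stem and endothelial cells, at 7.08 to 36.0 CPM against 489.5 to 633 CPM. Lyz2, a lysozyme of myeloid cells, was at 0.0995 to 28.1 CPM against 396 to 554 CPM (log2 fold change -5.04, SE 1.28, adjusted p = 0.0369). Of the falls named, those of Angpt1 and Adgrl4 were called under all alternatives run. The calls of Myct1, Tbxas1, Gm19590, Mc5r, Lyz2 and Hlf were lost without any 1 ST-HSC library, that of Lyz2 also without CLP replicate 2, 3 or 5 (adjusted p up to 0.0919), that of Mc5r without CLP replicate 2 or 4 and those of Myct1 and Gm19590 with DESeq2.

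Genes of megakaryocytes and platelets were called lower for 6 of 11 and higher for none, beside 8.28% and 6.6% of all tested genes. Pf4, a platelet chemokine, was at 0.155 to 0.569 CPM in CLP against 30.1, 23.0 and 15.1 CPM, and Gp9, a platelet adhesion receptor chain, at 0 in CLP against 14.7, 19.9 and 9.23 CPM (at least 253-fold lower). None of the 6 was stable. Of the erythroid list 2 of 11 were called lower, beside 8.28% of all tested genes. Of these 2, Car2, a carbonic anhydrase, fell by 3.74 on the log2 scale (SE 0.35, adjusted p = 0.00318) and was stable. Its level was 1238 to 1506 CPM in ST-HSC and 60.02 to 142 CPM in CLP.

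Granule genes of basophils and myeloid cells divided the CLP libraries. Mcpt8, a basophil protease, was at 1053 and 769 CPM in replicates 2 and 3, at 0.199 CPM in replicate 4 and at 0 in replicate 5, against 0 to 0.788 CPM in ST-HSC. Prss34, also a basophil protease, was at 334 and 1126 CPM in replicates 2 and 3 and at 0.398 and 0.276 CPM in replicates 4 and 5. Fcer1a, the IgE receptor chain, and Ctsg, cathepsin G, were high in the same 2 libraries, and so was Mpo, myeloperoxidase, with 1385, 623, 2.19 and 22.9 CPM against 48.5 to 71.3 CPM. None of these genes was called. In whole, 1 of 11 tested genes of the mast cell and basophil list was called higher and 1 lower, 2 of 23 myeloid genes higher and 1 lower, and 3 of 7 neutrophil and macrophage genes lower (S100a9, C1qb and C1qc), each at 0 in CLP. The counts of the mast cell and basophil list and of the myeloid list are near the 6.6% and 8.28% of all tested genes called higher and lower. In bulk libraries fewer cells of a type and less RNA per cell cannot be told apart. Without CLP replicate 2 the median of the myeloid list moved from 1.55 to 0.57, and without ST-HSC replicate 5 that of the neutrophil and macrophage list from -4.67 over 7 tested genes (-4.03 with genes at the detection limit at their bound) to 1.55 over 9. The summed level of that list overlapped between the groups, at 140.4, 100.5, 96.9 and 39.4 CPM in CLP against 42.4, 34.4 and 30.8 CPM.

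Immediate early genes were called higher for 14 of 24 and lower for 1, beside 6.6% and 8.28% of all tested genes. Their median log2 fold change was 2.25, and 7 of the 14 were stable. Junb, an AP-1 subunit, was at 2246, 3035, 2676 and 2245 CPM against 16.6, 21.5 and 33.8 CPM (log2 fold change 6.73, SE 0.39, adjusted p = 0.00135). Fos was at 4616, 8543, 10180 and 5941 CPM against 314, 494 and 767 CPM, and Ier2 and Zfp36 rose by 4.06 and 2.80. Dusp2, a nuclear MAP kinase phosphatase, fell by 2.48 on the log2 scale (SE 0.37).

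Interferon-stimulated genes, 29 of them tested, were called higher for 1 and lower for 4, with a median log2 fold change of -1.46, and libraries of the groups did not overlap for 2 with CLP higher and 10 with CLP lower. Over all tested genes 6.6% and 8.28% were called and 13.1% and 21.5% did not overlap. Ifi27 was the only stable gene, at 41.4, 68.0, 40.3 and 43.0 CPM against 213.5, 189 and 162 CPM. Of 26 mitosis genes edgeR called 0 in either direction, 1 had an unadjusted p under 0.05 and DESeq2 called 1 higher and 0 lower, with Mki67 at 136, 84.8, 60.9 and 42.2 CPM against 66.4, 56.0 and 97.9 CPM. Of 30 DNA replication genes edgeR called 1 higher (Fen1) and 1 lower (Prim1), 9 had an unadjusted p under 0.05 and DESeq2 called 4 higher and 1 lower, while groups did not overlap for 3 with CLP higher and 7 with CLP lower. Pcna, the polymerase clamp, was among the latter, at 240.1, 132.5, 122 and 185 CPM against 355, 305 and 288 CPM, and was not called (log2 fold change -0.89, SE 0.28, adjusted p = 0.0738), except without CLP replicate 2 (-1.10, adjusted p = 0.0237). Among G1 cyclins and CDK inhibitors Ccnd2 was called higher and Cdkn2d lower, of 16. Of the glycolysis list Pfkl, Pfkp and Pkm were called higher and the lactate dehydrogenase chain Ldhb lower, of 18, with Ldhb at 7.39 to 29.1 CPM against 168 to 229 CPM. Cytosolic ribosomal protein genes, a list also drawn up after values were seen, had 1 of 80 called higher and 46 lower, with a median log2 fold change of -1.11, and 14 of the 46 were stable. Their summed level was 39100 to 44370 CPM in CLP against 81440 to 91980 CPM, or 2.75% to 3.97% against 11.2% to 13.1% of unscaled counts. Rps6 was at 1174, 1014, 1155 and 830 CPM against 3301, 2841 and 2919 CPM, a fall of 1.53 on the log2 scale (SE 0.20, adjusted p = 0.00652). The gene called higher was Rps2, at 398.5 to 791 CPM against 86.1 to 188 CPM. Ribosomal protein genes have many processed copies in the genome, so the split of their reads is uncertain. The median stayed between -1.18 and -1.04 under all alternatives run, scaling included.

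Growth factor receptors had 3 of 29 called higher (Il7r, Il2rg and the interferon receptor chain Ifnar2) and 3 lower, among them Kit and Cd27. These counts are near the shares of 6.6% and 8.28% over all tested genes. The proteins of Il7r and Kit were gated, so their calls are no result.

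**Figure D4:**
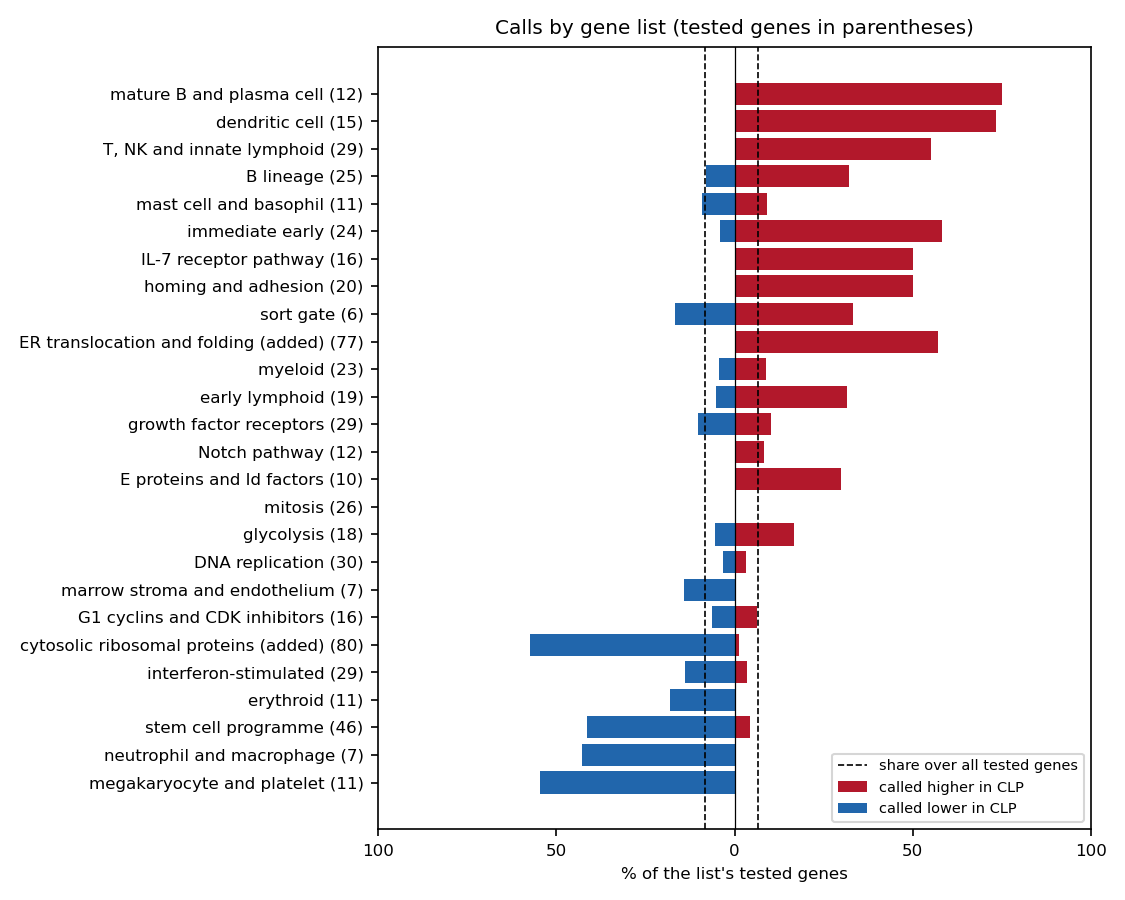
Percent of each list's tested genes called higher (right, red) or lower (left, blue) in CLP, with the number tested in parentheses and lists in order of their median log2 fold change. The dashed lines mark 6.6% and 8.28%, the shares over all tested genes; lists of plasma cells, dendritic cells, T, NK and innate lymphoid cells, immediate early genes and ER genes lie far to the right, and stem cell, platelet and ribosomal protein genes to the left.

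The same populations were compared in the libraries labelled Tet2KO, which share no sample with the WT comparison. The levels of Tet2 itself overlapped between the genotypes in both populations: its mean was 17 ± 10.3 CPM in WT CLP and 39.6 ± 18.8 in CLP labelled Tet2KO (SD, n = 4 each), and 19.9 ± 10.8 (n = 3) and 16.9 ± 6.52 (n = 4) in ST-HSC. These are sums over the gene, which do not show whether an exon was deleted, so the groups are called by their labels. Of 14836 genes tested, 575 (3.88%) were called higher and 571 (3.85%) lower in CLP labelled Tet2KO, together 7.72%. These counts too moved when 1 library was left out. Without 1 ST-HSC library they were 86 to 203 higher and 18 to 75 lower. Without CLP replicate 2 they were 952 and 848, and without CLP replicate 4 276 and 308.

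Of the 997 genes called higher in WT, 903 were tested in Tet2KO, 894 had the same direction and 347 were called, which is 34.8% of the WT calls and 60.3% of the Tet2KO calls. Of the 1250 lower calls, 1052 were tested, 952 had the same direction and 288 were called, 23% of the WT and 50.4% of the Tet2KO calls. None was called in the opposite direction. Across 13993 genes tested in both, Pearson's r of the fitted log2 fold changes was 0.706, where genes are not independent replicates. The ER list had 27 of 77 called higher and 0 lower in Tet2KO, the T, NK and innate lymphoid list 14 of 26 and 0, the stem cell programme 1 and 12 of 46, and immediate early genes 4 and 1 of 23. The medians of 2 marker lists of blood cells had the other sign than in WT. The megakaryocyte and platelet list had 1 of 12 called higher (the integrin chain Itgb3) and 0 lower, with a median log2 fold change of 0.20 against -5.50 in WT, and the neutrophil and macrophage list 0 of 4 called, with a median of 1.35 against -4.67. Pf4 divided the CLP libraries labelled Tet2KO, at 0.156 and 0.233 CPM in replicates 2 and 4 and at 1031 and 379 CPM in replicates 3 and 5, against 25.4 to 44.6 CPM in ST-HSC (adjusted p of the difference between genotypes = 0.519). The difference between genotypes was not tested for the lists.

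CLP replicate 2 labelled Tet2KO stood apart from the other 7 CLP libraries. Its share of immunoglobulin counts was 0.0839% against 9.25%, 29.2% and 32.6% in replicates 3 to 5, and its mitochondrial share was 12.5%. Its correlation with the other CLP libraries was 0.809 to 0.841, against 0.850 to 0.912 among the others. It had the highest Il7r of the Tet2KO CLP libraries, 1114 CPM against 227 to 331, and also the highest Ncr1, 1447 CPM against 148 to 286. It also held 719 counts of Rag1 and 1803 of Pax5, which had 0 counts in all WT CLP libraries. In replicates 3 to 5 Rag1 had 169, 3 and 1301 counts and Pax5 46, 6 and 239.

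The difference of the CLP effect between genotypes was tested as an interaction in 1 model of the 4 groups. Of 18117 genes, edgeR called 0 higher and 1 lower in WT (0% and 0.00552%), while 1434 had an unadjusted p under 0.05 and DESeq2 called 415 and 666. The called gene was Tha1, a threonine aldolase, named because it was the only one (adjusted p = 0.0461). It was at 0 in all 4 WT CLP libraries and at 4.96, 10.4 and 7.68 CPM in WT ST-HSC (at least 132.8-fold lower), and at 6.27 to 19.3 CPM in CLP and 1.16 to 6.08 CPM in ST-HSC labelled Tet2KO. No gene was called lower in this test with the replicate block, with no filter on low counts, without any 1 ST-HSC library of either genotype or without Tet2KO CLP replicate 3. Among stem cell genes, Meis1 was at 0.0260 CPM in CLP replicate 2 labelled Tet2KO and at 38.8 to 97.8 CPM in the other 3, with a log2 fold change of -3.54 in WT and -0.81 in Tet2KO (adjusted p of the difference = 0.764).

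**Figure D5:**
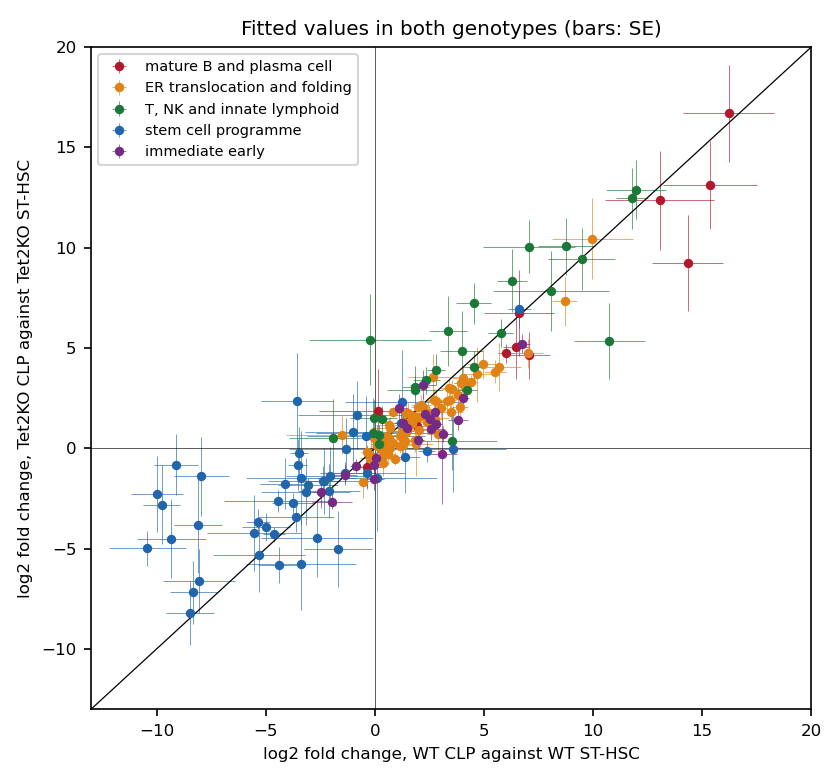
Fitted log2 fold change of CLP over ST-HSC in WT (horizontal axis) and in the libraries labelled Tet2KO (vertical axis) for genes of 5 lists, each a point with bars of 1 SE and the diagonal as a line. Most genes of ER folding and of T, NK and innate lymphoid cells lie above 0 in both, and most stem cell genes lie below 0 in both; Meis1 lies at -3.54 in WT and -0.81 in Tet2KO.

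Against WT CMP, the same 4 CLP libraries had 1088 genes called higher (7.3%) and 1211 lower (8.13%) of 14895 tested. The comparison shares its CLP libraries with the one above, so its values stand beside the others and add no replicate. Of the mature B and plasma cell list 9 of 11 tested genes were called higher and 0 lower against CMP. Among single genes, the log2 fold change against CMP was 10.64 for Ighm, 15.09 for Jchain and 6.81 for Sdc1. Immunoglobulin genes as a set were not counted against CMP. For the ER list 49 of 77 were called higher and 0 lower, with a median of 1.35. Xbp1 was at 58.3 ± 16.2 CPM in CMP (SD, n = 4), and its log2 fold change was 4.42 there against 7.06 over ST-HSC. Of the stem cell genes, Mecom, Procr, Meis1 and Angpt1 were lower in CLP also against CMP, whereas Hlf, at 8.68 ± 3.57 CPM in CMP, was not called (-0.80). Erythroid genes had 7 of 15 and platelet genes 10 of 14 called lower against CMP. Of the mitosis list 0 of 26 were called higher and 3 lower.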

How the data were processed

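RNA-seq (SMART-Seq2) was made from sorted bone marrow cells, with 200 cells per library by the labels; the study's methods give another, approximate number. The authors trimmed reads with Trim Galore and aligned them to mm10 with Hisat2; the counting program is not given in the sources used here. The deposited values are raw counts per gene and library, with no normalization, and 55154 gene IDs matched the GENCODE annotation of mm10. Libraries were grouped by their labels. Counts were filtered with filterByExpr, scaled by TMM and tested with edgeR 4.0.16 in R 4.3.3 (quasi-likelihood test, prior count 2, Benjamini-Hochberg adjusted p over all tested genes), with only the compared groups in each fit. Calls required an adjusted p under 0.05 and a change of at least 2-fold. The study used DESeq2, run here as an alternative (1.42.0), beside other scaling, filters, a replicate block, 1 fit of all WT libraries and each library left out. The fit was also run on simulated data, with an outcome that is not given here and that no statement above uses. Members and lists were chosen with earlier results of these data known. Named genes are those of the lists and the 10 largest calls each way at 50 CPM or more without overlap; others are said to be chosen after their values were seen. A floor of 3 counts per library was used, which covers counting error only. Depth was 51966192 counts or more in the 7 main libraries. A few genes that the naming rule or the lists include are not reported here, and counts over lists still hold them.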

Additional observations from a re-analysis of the deposited data

Results flagged for a closer look

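Among the CPM values of genes named in the text, 158 were checked for a library far from the other 3 CLP libraries (by Dixon's ratio of the gap to the whole range), and 10 passed; chance alone passes about 1 in 20 such groups. For Mecom, Ifit1, Ighd, Cd3d and Fcer2a the other 3 libraries were all at 0. Any count then gives a ratio of 1, so that chance rate does not apply to them and their flags carry no weight. In WT CLP replicate 5, Gm19590 was at 4.64 CPM against 0 to 0.122 CPM, Myct1 at 1.05 CPM against 0 to 0.0813 CPM, Mecom at 0.138 CPM against 0 and Ifit1 at 0.069 CPM against 0. These 4 genes stayed far below their ST-HSC levels in every CLP library. Among B and T cell genes, Ighd was at 11.4 CPM and Cd3d at 0.713 CPM in replicate 2 and both at 0 in the others, and Fcer2a was at 0.915 CPM in replicate 3 and at 0 in the others. The variable genes Ighv9-3 and Igkv8-24 were at 3950 and 17500 CPM in replicate 3 against 0.776 to 23.8 CPM and 2.88 to 5.94 CPM. Ifi27 was at 68.0 CPM in WT CLP replicate 3 and at 40.3 to 43.0 CPM in the others.

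The effect of CLP over ST-HSC differed between genotypes for Tha1 by a test of the difference itself, with a fitted log2 difference of -10.1, WT minus Tet2KO (edgeR interaction, adjusted p = 0.0461). Tha1 was at 0 in every WT CLP library, so the fitted value depends on the prior count and is no bound. The call was lost with the replicate block, with no filter on low counts, without any 1 ST-HSC library of either genotype and without Tet2KO CLP replicate 3.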

How the results depend on the processing

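In WT CLP against ST-HSC (997 higher, 1250 lower), DESeq2 called 1908 higher, no filter on low counts 630 and 519, and 1 fit of all WT libraries 2043 and 2858. With 1 library left out the calls ranged from 295 to 1053 higher and from 114 to 1494 lower, with both lowest without ST-HSC replicate 5 and both highest without CLP replicate 2. In Tet2KO, DESeq2 called 1460 and 976, no filter 271 and 174, and 1 library left out 86 to 952 and 18 to 848. Against CMP, DESeq2 called 1740 higher, and 1 library left out gave 804 to 1311 and 1097 to 1885. For the difference between genotypes (0 higher, 1 lower), DESeq2 called 415 and 666, no filter 0 lower, 1 library left out 0 to 1 higher and 0 to 16 lower, and leaving out immunoglobulin genes, an alternative chosen after seeing the data, 2 lower. The causes were not tested. RLE scaling (1036 and 1175) and leaving out immunoglobulin genes (972 and 1204) kept the WT counts within 1.5 times.

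The labels do not say what the replicate numbers share, and deviations of the 3 same-numbered WT CLP and ST-HSC pairs correlated at 0.00242, 0.0421 and 0.0148; the check was not run for Tet2KO or CMP. With the replicate block, 341 were called higher and 171 lower in WT, 19 and 3 in Tet2KO, 509 and 207 against CMP, and 0 lower for the difference between genotypes.

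Directions reversed for values that were not called in the main fit. Canx was at 0.0169 with DESeq2 and with RLE scaling, 0.0417 and 0.00979 without CLP replicates 2 and 5, and 0.0821 without ST-HSC replicate 2. Stat5b was at -0.583 with the replicate block and -0.117 and -0.163 without CLP replicates 3 and 4, and Ern1 at -0.161 with the block. Ighd was at -4.85 with the block, -6.57 without CLP replicate 2 (called lower, edgeR adjusted p = 0.0227) and -0.0143 and -0.0313 without ST-HSC replicates 2 and 3. Mki67 was at -0.228 without CLP replicate 2 and -0.0253 without ST-HSC replicate 3, Top2a at -0.0605 without CLP replicate 2, Tet2 at 0.24 without ST-HSC replicate 2 and 0.151 without CLP replicate 5, and Fcer2a at 1.58 without ST-HSC replicate 5. The median of the neutrophil and macrophage list was 1.55 without ST-HSC replicate 5. Over the fits that left out 1 library, the other ends of these ranges were 0.399 for Mki67, 0.794 for Top2a, 0.521 for Stat5b, -0.128 for Canx, 0.557 for Ighd, -0.544 for Tet2, -2.16 for Fcer2a and -5.18 for the median of the neutrophil and macrophage list.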

Other observations

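Further genes outside the lists, chosen after their values were seen, separated the libraries labelled CLP from ST-HSC. Prg2, the eosinophil granule major basic protein, was at 217, 686, 750 and 159.5 CPM in CLP and 0 in ST-HSC (at least 14130-fold higher). Ccr8, a chemokine receptor of type 2 and regulatory lymphoid cells, was at 141, 125, 145 and 173 CPM against 0 (at least 4553-fold higher). Icos, a costimulatory receptor, was at 68.8, 121, 184 and 233 CPM against 1.99 to 2.61 CPM, and Cxcr6, a chemokine receptor of innate lymphoid cells, at 256 to 286 CPM against at most 0.139 CPM. Tcrg-C1, a gamma chain constant region, was at 74.0 to 170 CPM against 0. Rgs1, a regulator of G protein signalling, was lower, at 286 to 479 CPM against 3186 to 3833 CPM. All 6 were called in every fit that left out 1 library.

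In CLP labelled Tet2KO, Ccr8 was at 6.37 to 25.7 CPM and was not called. Cxcr6 and Tcrg-C1 were called higher there as well.

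The variable genes Ighv11-2 and Igkv14-126, taken because they led in WT CLP replicate 5, had like shares in each WT CLP library. They were not the only such pair, as Ighv1-5 and Igkv1-135 both led in WT CLP replicates 2 and 4. Ighv11-2 took 0.0182%, 9.88%, 26.8% and 52.8% of heavy chain variable counts in WT replicates 2 to 5, and Igkv14-126 took 0.0319%, 14.4%, 25.1% and 48.6% of kappa variable counts. In Tet2KO replicates 2 to 5 the shares were 4.63%, 0.176%, 0.0423% and 37.8% for the first and 22.6%, 0.0173%, 0.0384% and 30.0% for the second; those of replicate 2 rest on only 3411 heavy chain and 3802 kappa variable counts. The pairing of chains within cells is not measured in bulk libraries.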
